A study of Solanum lycopersicum with 12 samples.

Results

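Transcript levels of 5 tomato genes that make the precursors of plastid isoprenoids were followed in fruit pericarp, the fleshy wall of the fruit. The genes were DXS1 (Solyc01g067890), HDR (Solyc01g109300), GGPS1 (Solyc11g011240), GGPS2 (Solyc04g079960) and GGPS3 (Solyc02g085700). They were chosen by gene identifier from the 35882 features of the count table, and all 5 were among the 19664 genes with enough counts to be tested. RNA had been sequenced from wild-type fruit (WT, labelled A) and from fruit of a mutant named cr, at 2 stages: mature green (35 in the labels) and breaker (38 in the labels), when colour starts to show. Each of the 4 groups had 3 libraries, with no treatment given in the labels. Neither the mutated gene nor the variety is named in the labels, which also leave out what 35 and 38 count and whether replicates stand for different plants or fruits. The p-values therefore reflect how far replicate libraries differed, which may be technical variation.

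Plastids build isoprenoids from pyruvate and glyceraldehyde phosphate through the methylerythritol phosphate (MEP) pathway. DXS1, a deoxyxylulose phosphate synthase, catalyses the first step of this pathway and is regarded as a main control point of its flux. HDR, hydroxymethylbutenyl diphosphate reductase, catalyses the last step and releases isopentenyl and dimethylallyl diphosphate. Geranylgeranyl diphosphate synthases (GGPS) join these units into geranylgeranyl diphosphate (GGPP), from which phytoene synthase starts the carotenoids, among them the lycopene that reddens tomato fruit. Chlorophyll side chains, tocopherols and gibberellins are made from the same GGPP.

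In the SL4.0 coordinates of the deposited tables, DXS1 lies on the minus strand of chromosome 1 at 69639734 to 69644123, with a model of 2761 bases within a span of 4390. HDR lies on the plus strand of the same chromosome at 88633576 to 88638360, with a model of 2020 bases. It overlaps a gene on the opposite strand, Solyc01g109310, which had 270 counts over the 12 libraries, against 24539 counts for HDR in the 3 WT mature green libraries alone. GGPS1 is on chromosome 11 (4321542 to 4322639, plus strand), GGPS2 on chromosome 4 (62252829 to 62253920, minus strand) and GGPS3 on chromosome 2 (46535275 to 46536357, plus strand). The models of these 3 genes are unbroken, with lengths of 1098, 1092 and 1083 bases equal to their spans, so no introns are annotated in them. The sources used here do not state whether reads were counted by strand or how reads shared by similar genes were treated, so small exchanges of counts among the GGPS genes cannot be told apart from their own counts.

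Library totals ran from 17703054 to 19426192 counts. Levels of a gene are given as CPM, counts scaled to library size with TMM factors (trimmed mean of M-values), and levels of different genes are compared only as FPKM, which is per length. Ripening fruit markers were present in the pericarp libraries. PG2A, the fruit polygalacturonase of softening, ran from 15.2 to 75.1 CPM in WT mature green, 6623 to 9343 in WT breaker, 0.825 to 7.87 in cr mature green and 233 to 1073 in cr breaker. E8, an ethylene-responsive ripening gene, ran from 977 to 1961, 9669 to 12146, 236 to 382 and 3435 to 7423 CPM in the same order. PSY1, the fruit phytoene synthase and a further marker, ran from 666 to 1197, 9555 to 10256, 555 to 827 and 2998 to 6048 CPM. PG2A and E8 were thus lower in cr than in WT at each stage without overlap, whereas PSY1 was so only at breaker and overlapped at mature green. The part of these differences in the results below was not tested. Of 46 seed genes (oleosins, vicilins and legumins by description), 25 were at 0 in all libraries, and the list summed to between 14.4 and 176 CPM, the highest value being WT mature green replicate 3. In bulk tissue, fewer cells of a type and less RNA per cell cannot be told apart.

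Over the 4 groups the 5 genes kept one order of level. In FPKM as deposited, HDR was the most abundant, followed by DXS1, GGPS3, GGPS2 and GGPS1. In WT mature green the means were 212 ± 5.51 FPKM for HDR, 124 ± 2.23 for DXS1, 44.8 ± 4.92 for GGPS3, 9.62 ± 3.16 for GGPS2 and 0.662 ± 0.317 for GGPS1 (SD, n = 3). In cr mature green the FPKM means were 243 for HDR, 132 for DXS1, 37.1 for GGPS3, 2.83 for GGPS2 and 0.785 for GGPS1. In WT breaker they were 355, 216, 95.1, 45.8 and 0.573 FPKM, and in cr breaker 286, 157, 71.2, 38.4 and 0.644 FPKM, in the same gene order. No neighbours in this order overlapped in any group. In cr breaker, for example, the lowest GGPS3 library had 63.6 FPKM and the highest GGPS2 library 48.6.

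**Figure D1:**
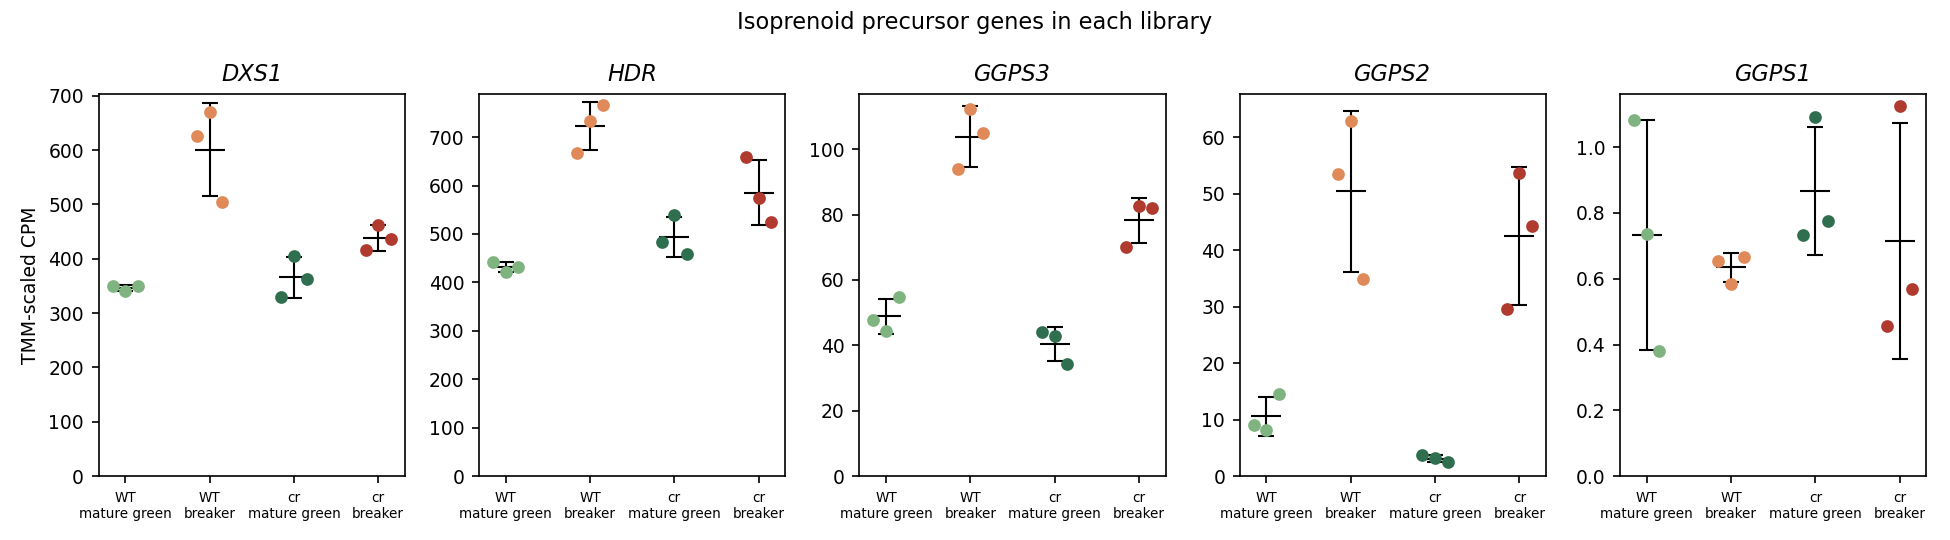
TMM-scaled CPM of DXS1, HDR, GGPS3, GGPS2 and GGPS1 (vertical axes, each from 0) in the 3 libraries of each of the 4 groups (points), with the mean (bar) and SD (error bars). DXS1, HDR, GGPS3 and GGPS2 are highest in WT breaker on average, GGPS2 is lowest in cr mature green at 2.52 to 3.67 CPM, and GGPS1 is at 1.13 CPM or below in all libraries.

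DXS1, the entry step, rose from mature green to breaker in WT and was lower in cr than in WT at breaker. WT mature green libraries had 350, 340 and 349 CPM for DXS1, and cr mature green libraries had 329, 405 and 362. These groups overlapped. WT breaker libraries had 626, 670 and 505 CPM and cr breaker libraries 416, 463 and 435, so that all WT breaker libraries lay above all cr breaker libraries. From mature green to breaker DXS1 rose by 0.79 ± 0.12 on the log2 scale in WT (SE, 1.73-fold, adjusted p = 9.95e-05, edgeR's quasi-likelihood test). In cr the same difference was 0.26 ± 0.12 (adjusted p = 0.108), with a 95% interval from 0.01 to 0.51, although the lowest cr breaker library lay above the highest cr mature green library. DXS1 was lower in cr than in WT at breaker by 1.37-fold (log2 -0.45 ± 0.12, adjusted p = 0.0119). Without WT breaker replicate 2, the highest library, this difference was -0.37 with an adjusted p of 0.0557. At mature green the difference was 0.08 ± 0.12 (adjusted p = 0.780), with an interval from -0.17 to 0.33.

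HDR, the exit step, also rose from mature green to breaker in WT. WT mature green libraries had 442, 422 and 432 CPM for HDR, and cr mature green libraries 483, 539 and 459, each above all of the WT ones. WT breaker libraries had 668, 733 and 766 CPM, and cr breaker libraries 658, 574 and 524, each below all of the WT ones by a narrow gap. HDR rose in WT by 0.74 ± 0.11 on the log2 scale (1.67-fold, adjusted p = 9.83e-05). In cr its stage difference was 0.25 ± 0.11 (adjusted p = 0.106, interval from 0.01 to 0.48), and the lowest breaker library, at 524 CPM, lay below the highest mature green library, at 539. Between genotypes HDR did not pass the test at mature green (log2 0.19 ± 0.11, adjusted p = 0.361, interval from -0.04 to 0.43) or at breaker (-0.30 ± 0.11, adjusted p = 0.0561, interval from -0.54 to -0.07). The breaker difference was on the other side of the threshold with DESeq2 (-0.31, adjusted p = 0.0120) and without cr breaker replicate 1 (-0.40, adjusted p = 0.0238). Per length, HDR stood at 1.70 ± 0.02 times the DXS1 level in WT mature green and 1.68 ± 0.35 times in WT breaker, with 1.85 ± 0.14 and 1.83 ± 0.29 times in cr mature green and breaker (SD, n = 3). Within the breaker groups this ratio was uneven: it was 1.46, 1.49 and 2.08 in WT replicates 1, 2 and 3 and 2.16, 1.69 and 1.65 in those of cr.

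The tested difference between the stage changes, the interaction of genotype and stage, was -0.53 ± 0.16 on the log2 scale for DXS1 (adjusted p = 0.0488) and -0.50 ± 0.15 for HDR (adjusted p = 0.0490), a smaller stage difference in cr. Both adjusted p-values lie just inside the threshold. The call was lost when 1 library was left out for DXS1 in 10 of 12 cases and for HDR in 11 of 12, with adjusted p-values up to 0.122 and 0.123 and log2 values between -0.64 and -0.45 for DXS1 and between -0.59 and -0.41 for HDR. The exceptions were WT breaker replicate 3 and cr mature green replicate 1 for DXS1, and cr breaker replicate 1 for HDR.

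GGPS2 was the member with the largest differences, except between genotypes at breaker. WT mature green libraries had 9.07, 8.14 and 14.6 CPM for GGPS2, while cr mature green libraries had 3.67, 3.12 and 2.52, without overlap. WT breaker libraries had 53.4, 62.8 and 34.9 CPM and cr breaker libraries 29.5, 53.7 and 44.3, and here the groups overlapped. All 6 breaker libraries lay above all 6 mature green libraries. At mature green GGPS2 was 3.40-fold lower in cr (log2 -1.77 ± 0.31, adjusted p = 0.00894), a difference resting on 598 counts in the WT and 190 in the cr libraries. WT mature green replicate 3, which was highest for GGPS2, was also highest of its group for PG2A (75.1 CPM against 15.4 and 15.2) and for the summed seed genes (176 CPM against 45.7 and 30.7). Without this library GGPS2 was still called lower in cr, by -1.47 (adjusted p = 0.0438). At breaker the genotype difference was -0.25 ± 0.25 (adjusted p = 0.521), with an interval from -0.80 to 0.30 that leaves room for a moderately lower level in cr.

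From mature green to breaker GGPS2 rose 4.76-fold in WT (log2 2.25 ± 0.27, adjusted p = 2.28e-05) and 13.7-fold in cr (log2 3.77 ± 0.31, adjusted p = 7.55e-06). The stage change was larger in cr by 1.52 ± 0.40 on the log2 scale (adjusted p = 0.0260). The interaction's log2 value fell to 1.22 (adjusted p = 0.0643) without WT mature green replicate 3, to 1.31 (0.0559) without cr breaker replicate 2 and to 1.39 (0.0654) without cr mature green replicate 3. It was 1.52 (0.0562) without cr mature green replicate 2. The mature green libraries enter the genotype comparison, the stage change and the interaction alike, so these values are not independent of each other.

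GGPS3, the most abundant of the 3 synthases, rose in both genotypes. WT mature green libraries had 47.7, 44.2 and 54.7 CPM for GGPS3, and cr mature green libraries 43.9, 42.9 and 34.4. WT breaker libraries had 93.9, 112 and 105 CPM and cr breaker libraries 70.1, 82.6 and 81.9. The cr libraries lay below all WT libraries at either stage, narrowly so at mature green. GGPS3 rose 2.12-fold in WT (log2 1.09 ± 0.12, adjusted p = 9.25e-06) and 1.93-fold in cr (log2 0.95 ± 0.12, adjusted p = 0.000106). The stage change differed between genotypes by -0.13 ± 0.17 (adjusted p = 0.656), with an interval from -0.50 to 0.23. At breaker GGPS3 was 1.33-fold lower in cr (log2 -0.41 ± 0.12, adjusted p = 0.0216), and at mature green the difference was -0.27 ± 0.12 (adjusted p = 0.227). The breaker call was lost without WT breaker replicate 2 (-0.35, adjusted p = 0.0885), without cr breaker replicate 1 (-0.34, adjusted p = 0.0870) and with library totals alone in place of TMM (-0.28, adjusted p = 0.0667).

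GGPS1 was close to the detection limit in this tissue. Its libraries had between 0.382 and 1.13 CPM, from 42 counts in all in WT mature green, 32 in WT breaker, 53 in cr mature green and 40 in cr breaker, and all groups overlapped with those they were compared with. No comparison passed the test. Its unadjusted p-values were 0.552 or more in edgeR, and no alternative called it. The log2 differences ran from -0.27 ± 0.45 for the stage change in cr (adjusted p = 0.691) to 0.23 ± 0.45 for cr against WT at mature green (adjusted p = 0.833). The intervals were wide, from -1.22 to 0.80 for the stage change in WT, so changes within these bounds were not detectable at this depth.

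**Figure D2:**
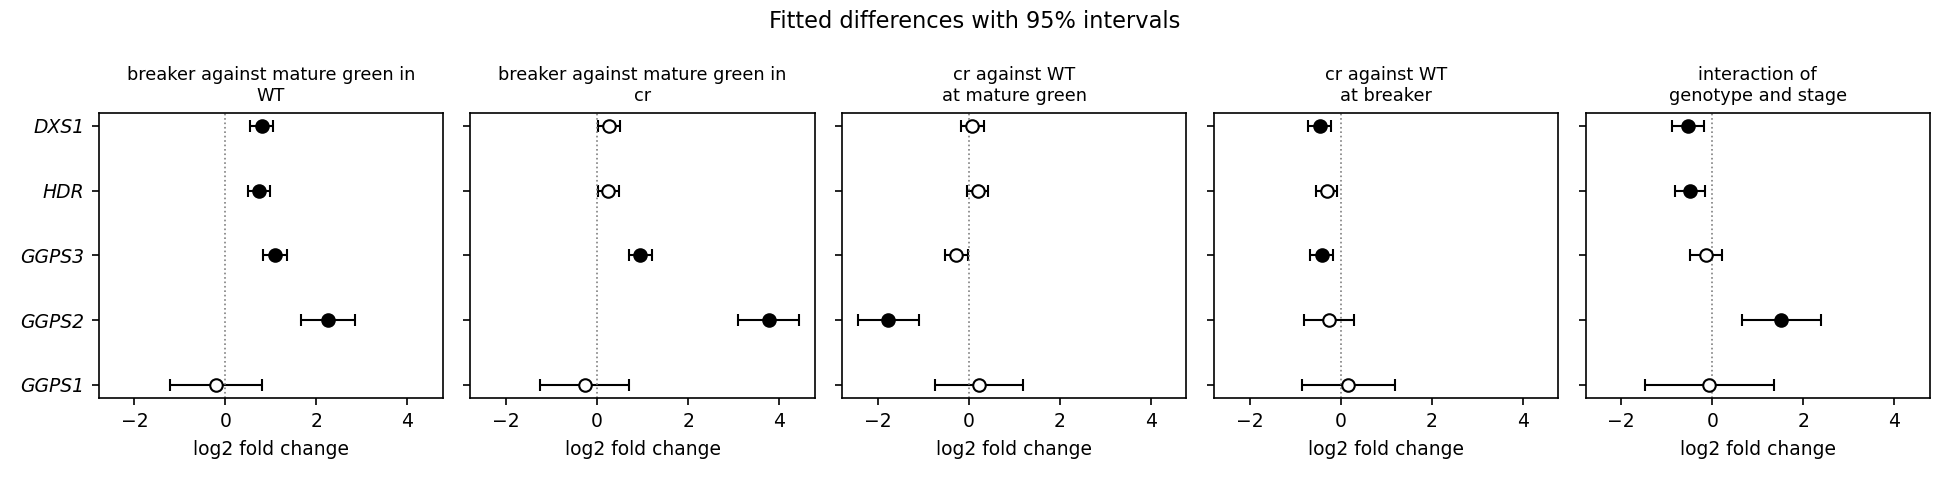
Log2 fold change (horizontal axis) of each member in the 5 comparisons, with the 95% interval of the fit, filled where the adjusted p was under 0.05. GGPS2 stands at -1.77 between genotypes at mature green and at 3.77 for the stage change in cr, and the GGPS1 intervals cross 0 in every panel.

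Counted over the members, 4 of 5 rose from mature green to breaker in WT, where 23.4% of all genes tested were called higher and 24.9% lower. In cr 2 of 5 rose, GGPS2 and GGPS3, against 15.2% of all genes called higher and 13.5% lower. At breaker 2 of 5 were lower in cr, DXS1 and GGPS3, against 11% of all genes called lower and 14% higher. At mature green 1 of 5 was lower in cr, GGPS2, where 2.62% of all genes were called lower and 1.72% higher. In the interaction GGPS2 was called higher and DXS1 and HDR lower, against 8.53% of all genes higher and 4.62% lower. From mature green to breaker the median log2 difference of the 5 members was 0.79 in WT and 0.26 in cr, where that of all genes tested was 0.00 in each. Between genotypes it was 0.08 at mature green and -0.30 at breaker, where all genes had -0.01 and 0.00, and -0.13 in the interaction, against 0.03.

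The makeup of the GGPS transcript pool differed between stages and, at mature green, between genotypes. Per length, the FPKM values of the 3 genes summed to 55.04 ± 7.81 in WT mature green, 40.7 ± 5.33 in cr mature green, 141 ± 18.2 in WT breaker and 110.3 ± 17.7 in cr breaker (SD, n = 3). GGPS2 held 15.6, 15.2 and 20.8% of this sum in the WT mature green libraries and 7.53, 6.58 and 6.64% in those of cr, so the ranges did not overlap. At breaker it held 35.9, 35.6 and 24.7% in WT and 29.3, 38.9 and 34.7% in cr, and the ranges overlapped. GGPS3 held the larger part in every library, from 60.3% in cr breaker replicate 2 to 91.3% in cr mature green replicate 3. The GGPS3 level was 4.86 ± 0.930 times that of GGPS2 in WT mature green, 13.2 ± 1.0 times in cr mature green, 2.20 ± 0.722 times in WT breaker and 1.94 ± 0.428 times in cr breaker. GGPS1 held at most 2.28% in any library. With 3 libraries a group these shares are given as a description, without a test.

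**Figure D3:**
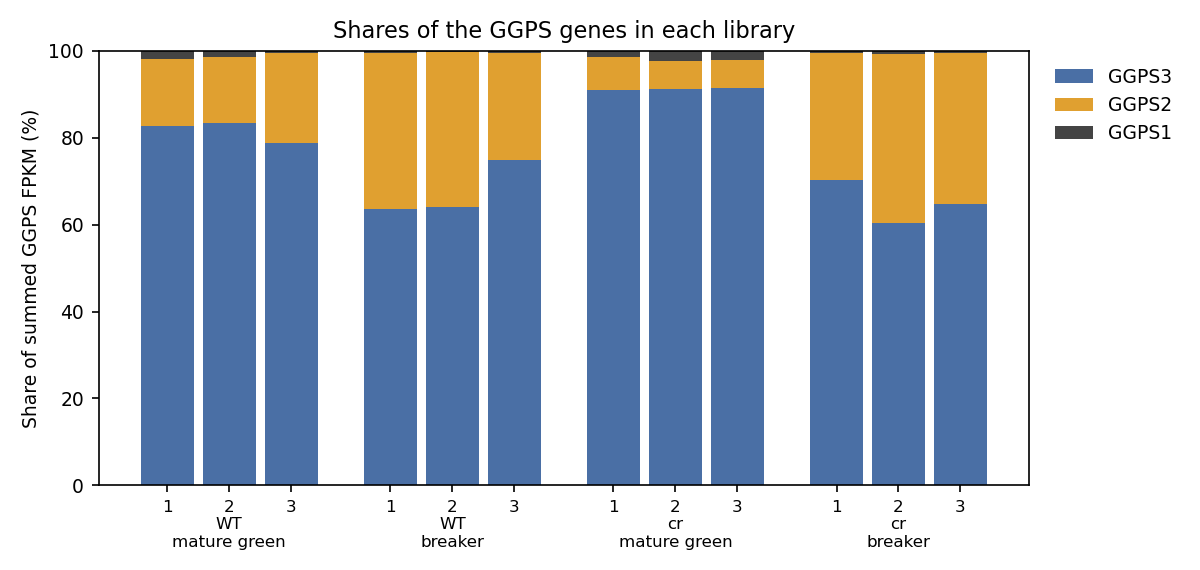
Share of GGPS3, GGPS2 and GGPS1 in their summed FPKM (vertical axis, percent) in each of the 12 libraries, grouped by genotype and stage. The GGPS2 part is 6.58 to 7.53% in the cr mature green libraries and 24.7 to 38.9% in the breaker libraries of both genotypes.

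The MEP pathway was taken as a list of 8 genes tested, DXS1 and HDR among them. From mature green to breaker in WT 5 of 8 rose and 1 fell, with a median log2 change of 0.53, where 23.4% of all genes rose and 24.9% fell. Of the 6 other than DXS1 and HDR, 3 rose. These were CMK, the kinase of the fourth step (log2 0.92 ± 0.12, adjusted p = 4.61e-05), HDS, the step before HDR (0.62 ± 0.09, adjusted p = 6.28e-05), and MDS, the cyclase between them (0.44 ± 0.13, adjusted p = 0.0126). MDS lost its call without WT mature green replicate 2 (0.31, adjusted p = 0.0588) and with library totals alone (0.25, adjusted p = 0.115). In cr 1 of 8 rose, CMK (0.52 ± 0.12, adjusted p = 0.00634), and 1 fell, with a median of 0.20. These counts were near the shares of all genes in cr, 15.2% rising and 13.5% falling. The gene that fell in each genotype was DXS2, a second deoxyxylulose phosphate synthase with only 173, 10, 104 and 43 counts in WT mature green, WT breaker, cr mature green and cr breaker. It is below the abundance set for naming list genes and is named after its values were seen. Its change was -3.90 ± 0.46 in WT (adjusted p = 1.64e-05; -4.59 without WT breaker replicate 2) and -1.14 ± 0.38 in cr (adjusted p = 0.0397), the latter lost without WT mature green replicate 1, cr mature green replicate 1 or 3, or any cr breaker library, with adjusted p-values of 0.0565 to 0.155, and with the replicate block (0.0621).

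At mature green none of the 8 MEP genes was called between genotypes, by edgeR or by DESeq2, with a median of 0.09; 2 of them, DXR and DXS2, had an unadjusted p under 0.05 in edgeR. At breaker 3 of 8 were lower in cr and 1 higher, with a median of -0.27, where 11% of all genes were lower and 14% higher. The lower ones were DXS1, CMK (-0.47 ± 0.12, adjusted p = 0.0126) and HDS (-0.31 ± 0.09, adjusted p = 0.0179), and the higher one was DXS2 (1.92 ± 0.50, adjusted p = 0.0135). CMK lost the call without cr breaker replicate 1 (adjusted p = 0.0540), HDS without cr breaker replicate 2 (0.0524), with only the 2 groups fitted (0.0745) and with library totals alone (-0.18, 0.135), and DXS2 without WT breaker replicate 1 (0.0557), while DXS2 was at 2.61 without WT breaker replicate 2. In the interaction 3 of 8 were lower, DXS1, HDR and HDS (-0.47 ± 0.12, adjusted p = 0.0226), and DXS2 was higher, with a median of -0.28. Of all genes, 4.62% were lower and 8.53% higher. That count of 3 fell to 1 or 0 when any library other than WT breaker replicate 3 or cr breaker replicate 1 was left out, to 1 with upper quartile factors or no filter, and to 0 with library totals alone or the replicate block. HDS itself lost the interaction call with the block (adjusted p = 0.0532), with totals alone (0.0556) and without WT mature green replicate 2 or cr mature green replicate 1 or 2 (0.0568 to 0.0631). DXR and MCT, the second and the third step, were called in no comparison in the edgeR fit of all groups. At breaker DXR was at 0.26 ± 0.10 in cr against WT (adjusted p = 0.0638), with an unadjusted p under 0.05. The count of MEP genes higher in cr at breaker went from 1 to 2 with upper quartile factors, with library totals alone and without cr breaker replicate 3. The count falling in WT went from 1 to 2 with upper quartile factors and with library totals alone.

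The 2 genes tested for isopentenyl diphosphate isomerase, which interconverts the products of HDR, went opposite ways with stage in WT and between genotypes at breaker. Solyc04g056390 rose from 229 ± 23.0 CPM to 452 ± 26.1 in WT (log2 0.98 ± 0.10, adjusted p = 4.06e-06) and from 209 ± 13.5 to 304 ± 12.2 in cr (0.54 ± 0.10, adjusted p = 0.00124). At breaker it was lower in cr by -0.57 ± 0.10 (adjusted p = 0.000938). Solyc05g055760 fell from 51.1 ± 7.0 to 16.7 ± 2.42 CPM in WT (log2 -1.61 ± 0.14, adjusted p = 1.12e-06), and had 35.02 ± 4.67 and 32.7 ± 1.11 CPM in cr, where the stage change was not called. It was higher in cr at breaker by 0.97 ± 0.13 (adjusted p = 0.000273) and lower in cr at mature green by -0.55 ± 0.13 (adjusted p = 0.0343). That mature green call ended on leaving out replicate 2 or 3 of either mature green group, with adjusted p-values of 0.0622 to 0.154, and with the replicate block (0.0573).

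Beside the GGPS genes, the list of prenyl chain genes held 3 further tested genes. SSU-II, a small subunit that binds GGPS enzymes, had 126 ± 17.2 CPM in WT mature green, 150 ± 18.6 in WT breaker, 116 ± 12.7 in cr mature green and 146 ± 4.64 in cr breaker. The edgeR fit of all groups called it in no comparison. Its stage change was 0.26 ± 0.12 in WT (adjusted p = 0.0910) and 0.33 ± 0.12 in cr (adjusted p = 0.0541), each with an unadjusted p under 0.05. FPS, the farnesyl diphosphate synthase of the cytosolic branch, was lower in cr at mature green (log2 -0.83, adjusted p = 0.0335) and rose in both genotypes, by 0.78 ± 0.19 in WT and 1.37 ± 0.20 in cr (adjusted p = 0.00443 and 0.000281). Its call at that stage did not hold without WT mature green replicate 2 or 3 or any cr mature green library, with adjusted p-values of 0.0576 to 0.151, or with the replicate block (0.0624). SPS, a synthase of the long solanesyl chain, rose in WT by 1.48 ± 0.13 (adjusted p = 1.73e-06) and was lower in cr at breaker by -0.87 ± 0.13 (adjusted p = 0.000421). Its stage change in cr was 0.35 ± 0.13 (adjusted p = 0.0609). That change was called with only the 2 groups fitted (0.0467) and without WT mature green replicate 2 (0.0480) or cr mature green replicate 2 (0.0476). With the GGPS genes, 4 of 6 rose in WT and 3 of 6 in cr, where 23.4% and 15.2% of all genes rose. The count in cr went from 3 to 5 with only the 2 groups fitted. Lower in cr were 2 of 6 at mature green (GGPS2 and FPS) and 2 at breaker (GGPS3 and SPS), against 2.62% and 11% of all genes. In the interaction GGPS2 was higher and SPS lower, against 8.53% of all genes higher and 4.62% lower. The list medians were 0.94 and 0.65 for the stage change in WT and cr, -0.20 and -0.24 between genotypes at mature green and at breaker, and 0.00 in the interaction.

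Of 6 genes tested that turn GGPP into lycopene, 6 rose in WT, where 23.4% of all genes rose, and 5 in cr, where 15.2% did, with medians of 1.39 and 0.71 on the log2 scale. The exception in cr was PSY2, a second phytoene synthase (log2 0.08, adjusted p = 0.689). PSY1, the fruit phytoene synthase that uses GGPP directly, rose by 3.29 ± 0.29 in WT (adjusted p = 1.79e-06) and 2.89 ± 0.29 in cr (adjusted p = 2.38e-05), and its stage change was not called different between genotypes (-0.40, adjusted p = 0.552). ZISO, the zeta-carotene isomerase, rose by 5.14 ± 0.43 in WT (adjusted p = 1.01e-06) and 3.81 ± 0.40 in cr (adjusted p = 3.44e-05). At mature green none of the 6 was called by edgeR, with a median of -0.04 and PSY1 at -0.58 (adjusted p = 0.260); PSY2 had an unadjusted p under 0.05 and was called higher by DESeq2 and without cr breaker replicate 1. At breaker 5 of 6 were lower in cr, with a median of -0.75, where 11% of all genes were lower. The largest differences were those of ZISO (-1.85 ± 0.37, adjusted p = 0.00292), PSY1 (-0.98 ± 0.27, adjusted p = 0.0184) and ZDS, a desaturase (-0.88 ± 0.10, adjusted p = 7.31e-05). PSY1 lost the call without cr breaker replicate 1 (-0.72, adjusted p = 0.0556), the library with 2998 CPM against 6048 and 5852 in the other cr breaker libraries. In the interaction 2 of 6, ZDS and PDS, were lower, with a median of -0.69, where 4.62% of all genes were lower. Of the 6, 5 had an unadjusted p under 0.05 in edgeR, and DESeq2 called 4 lower, CRTISO and PSY2 being the others.

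**Figure D4:**
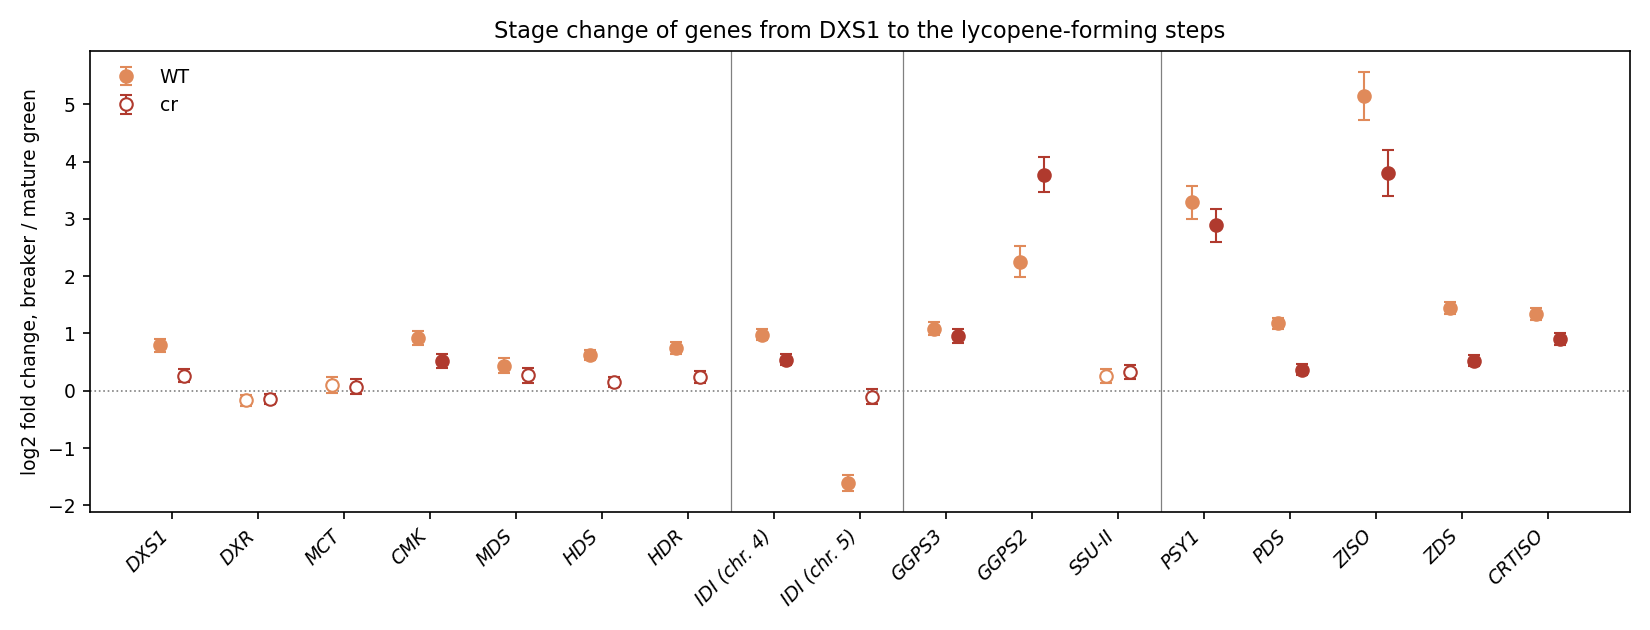
Log2 fold change from mature green to breaker with its SE (vertical axis) in WT and in cr, for genes in pathway order from DXS1 to CRTISO, filled where called; grey lines part the MEP steps, the isomerases (IDI), the prenyl chain genes and the lycopene-forming steps. GGPS2 is at 2.25 in WT and 3.77 in cr, while DXS1 and HDR are at 0.79 and 0.74 in WT and at 0.26 and 0.25 in cr.

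The likeness of each member's pattern to other genes was measured as the root mean square (RMS) difference of log2 CPM, centred on each gene's mean, over the 12 libraries, among 12853 genes whose mean was 3 log2 CPM or more. DXS1 came closest to Solyc09g011410, described as a copper ion transporter (RMS difference 0.08 log2 units, where the RMS of DXS1 about its own mean was 0.33). Solyc12g005980 (WLM and PUB domains) and Solyc02g086560 (sirohydrochlorin ferrochelatase-like) came next, at 0.08 and 0.09. HDR came closest to a feature with neither Solyc identifier nor description, at 0.06, then Solyc09g090460 (nucleolar GTP-binding protein) and Solyc09g074650 (peptide chain release factor) at 0.08 each, with 0.29 for HDR about its mean. DXS1 and HDR differed from each other by 0.17, which put HDR at rank 403 among the genes most like DXS1.

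GGPS3 came closest to Solyc09g014300, described as a sulfoquinovosyl transferase of plastid lipid synthesis, at 0.06, where GGPS3 about its mean had 0.55. A feature with no description and Solyc08g068330 (aspartate aminotransferase) were each at 0.10. GGPS2, with 1.64 about its mean, came closest to Solyc08g066690 (exostosin-like) at 0.28, Solyc08g066700 (exosome RRP46-like) at 0.30 and Solyc07g053640 (an arabinogalactan protein) at 0.32. PSY1 was at rank 36 for GGPS2, with an RMS difference of 0.57, and at rank 12006 for GGPS3, at 1.09. For DXS1 and HDR it was at ranks 12576 and 12612. Values were centred but not scaled, so these ranks depend on the size of a gene's changes as well as on their direction. GGPS1 had as its nearest Solyc06g009260 and Solyc02g005140, of unknown function, and Solyc01g087410 (zinc finger), at 0.23 to 0.24, against 0.40 about its own mean.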

How the data were processed

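RNA extracted with Trizol was sequenced as Illumina libraries, per the labels. The tools named in the submitters' processing notes, with no role stated, are HISAT2 2.0.5, fastp 0.23.1, edgeR 3.22.5, featureCounts 1.5.0-p3 and DESeq2 1.20.0. The authors deposited raw counts per gene and FPKM values (per length), used here as deposited. The FPKM values are not simply counts per length and library total, and the labels do not state their library scaling. From the counts, genes were filtered with filterByExpr (min.count 10, min.total.count 15), scaled by TMM and tested with edgeR 4.0.16 (glmQLFit, glmQLFTest) in R 4.3.3, in a single fit of the 12 libraries with a coefficient per group. P-values, two-sided, were adjusted by Benjamini-Hochberg over all 19664 genes in each of 5 comparisons, and genes were called under 0.05. The biological coefficient of variation common to all genes was 0.155. An SE is the log2 fold change over the root of F. The code was tested on simulated data.

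Replicate libraries had Pearson correlations of log2 CPM of 0.977 to 0.986, and no pair differed only by sampling noise. Alternatives were other scaling factors, no filter, DESeq2 1.42.0, only the groups compared, a replicate block and leaving out each library. The members and lists (MEP pathway, isomerases, mevalonate pathway, prenyl chains, carotenoid and other uses of GGPP) were chosen with earlier results of these data known. Beside the members and PSY1, list genes named are up to 3 called per comparison with the largest change and a mean of at least 3 log2 CPM; where few were called, the others, and SSU-II, DXR, MCT and PSY2, were named after their values were seen. Of the genes written down, 1 MEP gene and 1 isomerase were dropped because the deposited description did not match, and 1 gibberellin gene is not analysed here.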

Additional observations from a re-analysis of the deposited data

Results flagged for a closer look

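The stage change was called different between WT and cr, by the interaction test of edgeR (adjusted p under 0.05), for 3 of the 5 members. Of all genes tested, 8.53% were called higher and 4.62% lower in the interaction. The log2 difference, cr stage change minus WT stage change, was -0.53 for DXS1, -0.50 for HDR and 1.52 for GGPS2. The DXS1 and HDR values were called under few of the alternatives, as described with the results. GGPS2 lost its call in 4 of the 12 fits with a library left out.

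The neighbouring lists held 8 MEP, 2 isomerase, 13 mevalonate, 6 prenyl chain, 6 carotenoid and 3 other GGPP-use genes tested, members included. The interaction test singled out 10 further genes of these lists. In the MEP pathway these were DXS2 at 2.76 (3.45 without WT breaker replicate 2) and HDS at -0.47, whose call was lost in settings given with the results. The isomerase Solyc05g055760 was at 1.51. In the mevalonate pathway the thiolase Solyc07g045350 was at 0.55, the hydroxymethylglutaryl-CoA synthases Solyc08g080170 and Solyc12g056450 at 1.37 and 0.85, and the reductase HMGR2 at -4.20. The thiolase lost the call when replicate 3 of WT mature green, 1 or 2 of WT breaker, 2 or 3 of cr mature green, or 3 of cr breaker was left out, with adjusted p-values of 0.0535 to 0.0793. SPS was at -1.13, PDS at -0.805 and ZDS at -0.92.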

How the results depend on the processing

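No member changed sign among its called values. Of the recomputed member values, 430 kept their side of the threshold, 38 lost a call and 2 gained one. The 48 recomputed shares of the GGPS genes say nothing on stability. With 3 libraries, leaving 1 out cannot move a group mean by 1 SD, and counts per length gave the same shares as FPKM. DXS1 at breaker ran from -0.57 to -0.37 with a library left out, HDR from -0.40 to -0.21 (DESeq2 -0.31) and GGPS3 from -0.48 to -0.34 (library totals alone -0.28). In the interaction, DXS1 was -0.54 with relative log expression factors, -0.47 with upper quartile factors, -0.43 with library totals alone, -0.53 without the filter and -0.64 to -0.45 with a library left out, and was called in 3 of 18 settings. HDR was -0.44, -0.39 and -0.50 with upper quartile factors, library totals and no filter, and -0.59 to -0.41 with a library left out, also called in 3 of 18. GGPS2 ran from 1.22 to 1.72. The cause of these lost calls was not tested, beyond the fewer samples where a library was left out.

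Replicate numbers did not pair the samples: deviations of same-numbered libraries correlated between -0.152 and 0.0799 over 18 pairs, with none over 0.1. With the replicate block, the interaction was -0.52 for DXS1 (adjusted p = 0.0675) and -0.50 for HDR (0.0874). The block moved the number of genes called from 853 to 603 for cr against WT at mature green, 4927 to 4358 at breaker, 9498 to 8978 and 5645 to 4941 for the stage change in WT and cr, and 2585 to 2044 in the interaction.

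DESeq2 called 1424 genes at mature green where edgeR called 853, and 243 to 1182 were called with 1 library left out, the lowest without WT mature green replicate 3 (512 without its replicate 1, and 373, 331 and 406 without cr mature green replicates 1, 2 and 3). The stage change in cr gave 3691 (without cr mature green replicate 3) to 6041, against 5645 in all libraries. The median log2 difference of all genes, 0.00 to 0.03 in size with TMM for these comparisons, was -0.19, -0.10, 0.13 and 0.13 under library totals alone for the stage change in WT and cr, breaker and the interaction, and -0.10 under upper quartile factors for the stage change in WT. The share of called genes that were higher went from 48.4 to 29.6% (upper quartile 37.5%), 53.1 to 37.5%, 56.1 to 74.9% and 64.9 to 78.7% with totals alone, and from 39.6 to 50.1% at mature green with only the 2 groups fitted. Counts of list genes moved in 88 recomputed values and held in 1040. GGPS1 rests on only 32 to 53 counts a group and DXS2 on 10 to 173, which limits both.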

Other observations

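The mevalonate pathway, the cytosolic route to the same building blocks, was measured through 13 genes, and its members moved in both directions. From mature green to breaker 5 rose and 4 fell in WT, and 6 rose and 2 fell in cr, with median log2 changes of 0.28 and 0.37. Of all genes tested, 23.4% rose and 24.9% fell in WT, and 15.2% rose and 13.5% fell in cr. HMGR2, a reductase at the main control point of the route, had 36.2, 30.9 and 26.7 CPM in WT mature green and 564, 508 and 115 in WT breaker, a rise of 3.66 ± 0.43 (adjusted p = 1.71e-05). In cr it had 47.2, 58.4 and 48.8 CPM at mature green and 38.0, 34.6 and 33.8 at breaker, and at breaker it was lower in cr by -3.48 ± 0.43 (adjusted p = 0.000112). The synthase Solyc08g080170 fell in both, by -1.98 ± 0.12 in WT and -0.61 ± 0.12 in cr (adjusted p = 1.34e-07 and 0.00193). At breaker 2 of the 13 were higher in cr and 2 lower, with a median of -0.04. These counts were near the shares of all genes, 14% higher and 11% lower. The count of 2 higher fell to 1 without any WT breaker library or replicate 3 of cr breaker, where the synthase Solyc12g056450 lost its call (adjusted p = 0.0693 to 0.103). This synthase also lost its call without replicate 1 of cr breaker (0.0769) and with only the 2 groups (0.0587). In the interaction 3 were higher and 1 lower (2 without replicate 3 of cr breaker), with a median of 0.18, against 8.53% and 4.62% of all genes. At mature green none of the 13 was called by edgeR, with a median of -0.27, while 7 had an unadjusted p under 0.05 and DESeq2 called 2 lower, the thiolase Solyc07g045350 and the synthase Solyc08g007790. The thiolase stood at an adjusted p of 0.0501 (-0.41) and was called with relative log expression factors (0.0482), only the 2 groups (0.0468), the replicate block (0.0396), and without WT breaker replicate 2 or 3 or replicate 1 of cr breaker (0.0393 to 0.0454). HMGR2 was called higher with only the 2 groups (0.0196) and without WT breaker replicate 3 (0.00815), and Solyc08g007790 lower without replicate 3 of cr breaker (0.0488). The count of 5 rising in WT fell to 2 or 3 without WT mature green replicate 1 or 2, any WT breaker library, replicate 3 of cr mature green or replicate 2 of cr breaker, to 2 with upper quartile factors, library totals alone or no filter, and to 3 with DESeq2. The count of 6 in cr fell to 2 or 3 when replicate 2 or 3 of cr mature green or replicate 3 of cr breaker was left out, and to 3 with library totals alone.

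Of 3 tested genes that use GGPP for chlorophyll and tocopherols, 1 rose and 1 fell in each genotype. Of all genes, 23.4% rose and 24.9% fell in WT, and 15.2% rose and 13.5% fell in cr. GGR, the geranylgeranyl reductase that makes phytyl chains, fell by -1.07 ± 0.16 in WT (adjusted p = 0.000140) and -0.59 ± 0.16 in cr (adjusted p = 0.0148), the latter lost without replicate 2 of cr mature green or replicate 2 or 3 of cr breaker (adjusted p = 0.0506 to 0.0645). HPT, of tocopherol synthesis, rose by 1.44 ± 0.18 in WT and 0.96 ± 0.18 in cr (adjusted p = 2.50e-05 and 0.00161). At breaker GGR was higher in cr by 0.92 ± 0.16 (adjusted p = 0.00144) and HPT lower by -0.80 ± 0.17 (adjusted p = 0.00497), with a list median of 0.00. In the fit of all groups by edgeR, and in DESeq2, none of the 3 was called at mature green or in the interaction, where the medians were 0.25 and -0.26 and 2 and 0 of the 3 had an unadjusted p under 0.05 in edgeR. GGR was called higher in cr at mature green with only the 2 groups fitted (0.45, adjusted p = 0.0348) and without replicate 1 of cr breaker (0.44, adjusted p = 0.0346).

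Within the breaker groups, WT replicate 3 and cr replicate 1 were lowest or highest of their group for several genes. With 3 libraries 1 is always lowest, and some gaps were narrow, as for HDR in WT (766 against 733 CPM) and DXS1 in cr (416 against 435 CPM). WT breaker replicate 3 was lowest of its group for DXS1 (505 CPM), GGPS2 (34.9) and HMGR2 (115) and highest for HDR (766), but lay between the others for GGPS3 (105). Of the ripening markers, it was highest for PG2A (9343) and PSY1 (10256) and lowest for E8 (9669). In cr breaker, replicate 1 was lowest for DXS1 (416), GGPS2 (29.5) and GGPS3 (70.1) and highest for HDR (658). It was lowest for each of the markers PG2A (233), PSY1 (2998) and E8 (3435), unlike WT breaker replicate 3.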
